A study of Rattus norvegicus with 15 samples.

Results

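The genes described here encode the proteins of the cytosolic ribosome, the machine that translates messenger RNA in the cytoplasm. They were chosen by name alone. Every gene whose symbol starts with Rpl or Rps followed by a digit, or is Rpsa, Rplp0, Rplp1 or Rplp2, was taken, and names of pseudogenes and of the Rps6k kinases were left out. A total of 88 genes matched, and 83 of them had a mean of at least 0.5 FPKM (fragments per kilobase of transcript, scaled by library size) over all libraries. The 83 kept genes were 27 of the small subunit, 41 of the large subunit, 3 of the stalk and 12 paralogues or genes with a similar name, out of 16124 gene sums tested and 37367 in the table.

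The libraries came from primary rat brain microvascular endothelial cells (BMECs), cultured from the cerebral microvessels of Sprague-Dawley littermates aged 2 to 3 weeks. Each of the 5 groups had 3 biological replicates. Cells at 60% confluence received x-rays of 5 Gy or 20 Gy at 2.5 Gy/min and were collected 12 h or 24 h later, and control cells were handled alike without x-rays and are labelled as cultured for 12 h. Because no unexposed group of 24 h was used here, a change seen at 24 h after exposure and a change with the longer culture cannot be told apart. All 4 exposed groups were set against the same 3 control libraries, so their comparisons with control are not independent of each other.

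A ribosome is built from a small subunit, which reads the messenger RNA, and a large subunit, which joins the amino acids, and each subunit holds ribosomal RNA and many proteins that are needed in nearly equal amounts. A stalk of acidic proteins on the large subunit recruits the translation factors. The messenger RNAs of these proteins are abundant and short, and in mammals they typically begin with a run of pyrimidines, the terminal oligopyrimidine (TOP) motif, through which growth signals set their translation. Some ribosomal proteins also act when ribosome assembly is disturbed, when free Rpl5 and Rpl11 bind the p53 regulator Mdm2.

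The annotated starts of the genes were read for this motif, because it is the sequence feature that the class is known for. A run was counted where C was followed by at least 4 further letters that were each C or T and where it began within 5 bases of the start. Promoter sequences from RefSeq (build GRCr8, not the build of the FPKM table) were matched for 63 of the 83 genes, and 53 lay on the same chromosome as the FPKM transcript and had several exons. A run was found in 30 of these 53 (56.6%), compared with 5704 of 33469 promoters of all genes (17.0%). The 53 were limited by chromosome, exons and expression and the 33469 were all promoters, so the shares come from unlike sets. The windows below hold 15 bases before and 15 bases from the start, with the run in capitals, for the stalk gene Rplp0, the large subunit genes Rpl19 and Rpl10, and the small subunit gene Rps27 with its paralogue Rps27l.
Rplp0: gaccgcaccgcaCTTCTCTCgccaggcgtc
Rpl19: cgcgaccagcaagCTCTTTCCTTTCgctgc
Rpl10: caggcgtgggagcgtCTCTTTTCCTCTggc
Rps27: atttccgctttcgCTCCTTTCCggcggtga
Rps27l: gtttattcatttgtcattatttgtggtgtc
In GRCr8 these windows lie at chr12:46718376-46718405 (minus strand), chr10:83519049-83519078 (plus), chrX:157205835-157205864 (plus), chr2:177964592-177964621 (minus) and chr8:76443643-76443672 (plus). Rps27 carried a run of 9 pyrimidines and Rps27l carried none in its window, which says only that these letters are absent there.

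The sequencing depth read from the steps between low FPKM values was 5.44 to 7.49 gigabases of aligned sequence per library. The sum of all FPKM was 411365 to 416827 in the 5 Gy 24 h libraries and 426265 to 476629 in the others, and no rescaling between libraries was applied. The cell type label was checked against markers. Of 14 endothelial markers, 12 were in the table and 8 had a mean under 0.5 FPKM, Cdh5 (0.0763) and Vwf (0.0364) among them. The endothelial markers with a mean of at least 1 FPKM were Slc2a1 (16.5) and Flt1 (2.66), so Slc2a1 weighed most in the sum of that list. All 6 fibroblast markers were above 1 FPKM, with Col3a1 at 311 FPKM. The summed FPKM of the fibroblast list was 1366 to 1466 in control libraries, 923 to 1102 at 12 h and 210 to 272 at 24 h, and that of the pericyte list was 113 to 121, 72.2 to 95.0 and 40.9 to 69.4. In the pericyte list 3 of the 6 markers, Rgs5, Kcnj8 and Abcc9, had a mean under 0.5 FPKM, and Anpep had the highest mean (62.7 FPKM). The summed endothelial list was 22.2 to 29.2 in control libraries and 12.95 to 28.03 in exposed ones, and that of the microglia list at most 0.301 in any library. The part that these shifts had in the results below was not tested, and in bulk RNA fewer cells of a type and less RNA per cell cannot be told apart.

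Ribosomal protein messenger RNAs made up a large and nearly constant part of the transcripts in every group. The kept genes held 7.12%, 7.70% and 8.29% of all FPKM in the 3 control libraries. The shares were 7.65%, 8.27% and 7.73% in the 5 Gy 12 h group and 7.53%, 8.01% and 7.36% in the 20 Gy 12 h group. They were 7.04%, 7.13% and 7.74% in the 5 Gy 24 h group and 7.60%, 7.93% and 7.99% in the 20 Gy 24 h group. The range of each exposed group overlapped the control range, and the control libraries were spread the widest, at 7.70% ± 0.58 (SD, n = 3). The genes with the highest means were Rplp0 (1159 FPKM), a stalk protein, Rplp1 (1055 FPKM), its partner in the stalk, Rps18l1 (1053 FPKM), named after a small subunit protein, Rps15a (1053 FPKM) of the small subunit and Rpl26 (940 FPKM) of the large subunit. A total of 56 genes had a mean of at least 100 FPKM, and 12 had a mean under 5.

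**Figure D1:**
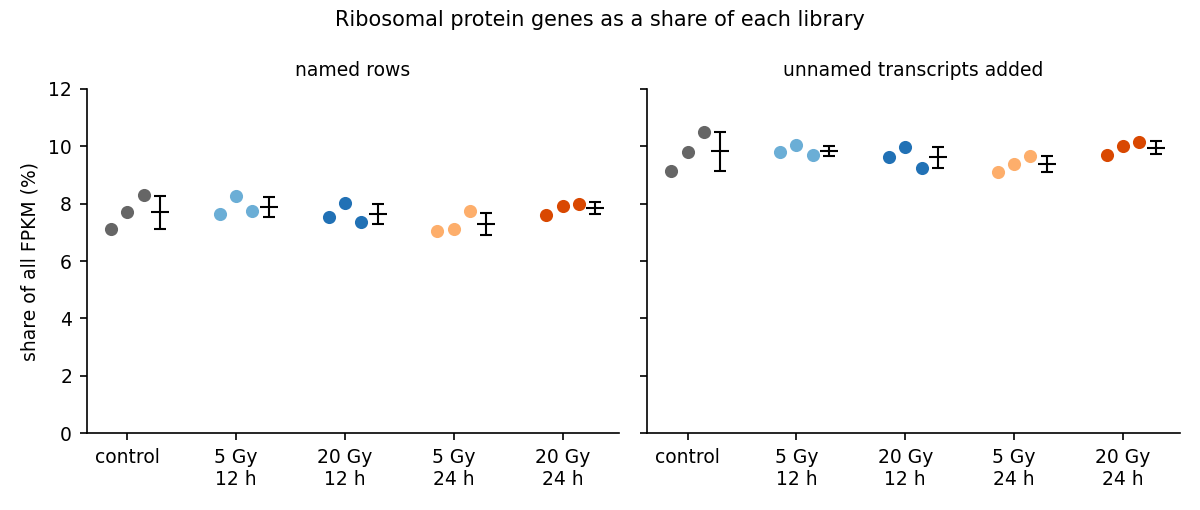
Share of all FPKM (percent, vertical axis from 0) held by the cytosolic ribosomal protein genes in each library, for the transcripts that carry the gene name (left) and with the unnamed transcripts added (right). On the right Rpl7a and Rps10 are counted too. Points are libraries and the dash and bar give mean ± SD of 3; every exposed group overlaps the control libraries, which run from 7.12% to 8.29% on the left and from 9.15% to 10.5% on the right.

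A share of the reads of these genes sat on transcripts that the assembly had left without a name. Of the 83 genes, 50 had unnamed transcripts in their locus, and in 40 genes the named transcripts held under 90% of the locus FPKM in at least 1 library. Every result is therefore given for the named transcripts, and where it matters also with each unnamed transcript added to the gene it overlapped most. With that addition the share of all FPKM was 9.15% to 10.5% in control libraries and 9.10% to 10.1% in exposed ones, and 67 of the 83 genes had a mean of at least 100 FPKM. Beside the 83 genes, this share also counts Rpl7a and Rps10. For Rpl7a and Rps10, which were listed at 0 in every library and so were not kept, the unnamed transcripts held 365 to 525 FPKM and 393 to 531 FPKM. Rpl3l was also listed at 0 throughout and Rpl30l1 had a mean under 0.5 FPKM. Rpl10l, at a mean of 0.4998 FPKM, lay just below the limit for being kept.

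The stalk showed what the naming did to single values. Rplp0 was 632, 1707 and 1066 FPKM in the control libraries and 1528, 1651 and 760 FPKM in the 5 Gy 12 h group. In the other groups it fell to 0.755 FPKM in 1 library in the 20 Gy 12 h group and was listed at 0 in 1 library in the 5 Gy 24 h group, beside libraries of the same groups at 1212 to 1678 FPKM. With the unnamed transcript of its locus (chr12:46791528-46795089, minus strand, Rnor_6.0) these 2 libraries held 1252 and 1078 FPKM, and all 15 lay between 1078 and 1898 FPKM. Rplp1 was 197 FPKM in 1 library in the 5 Gy 12 h group and 992 to 1261 FPKM in the other 14, and that library held 1063 FPKM with its unnamed transcript. Rplp2 ranged from 53.5 to 380 FPKM by name and from 199.5 to 414 FPKM with the addition. None of the 3 stalk genes passed the test in any comparison with control.

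The same pattern was seen in core genes of both subunits. Rpl29, of the large subunit, was listed at 0 in 2 control libraries and at 946 FPKM in the third, whereas all 3 libraries in the 5 Gy 12 h group held 749 to 859 FPKM. After the addition the control libraries held 340, 447 and 949 FPKM, and the 5 Gy 12 h libraries 751 to 860 FPKM. Rps19, a small subunit gene that is mutated in Diamond-Blackfan anaemia, was listed at 0 by name in 13 libraries, while its locus held 285 to 609 FPKM in every library. Rpl27a was 0.443 FPKM in 1 library in the 5 Gy 24 h group and 547 FPKM in 1 library in the 20 Gy 24 h group by name, and 407 to 684 FPKM over all libraries with the addition. The named transcripts of Rpl12 (1.11 to 14.8 FPKM), Rpl15, Rpl18, Rpl24 and Rps24 were near the floor throughout, and with the unnamed ones Rpl12 held 635 to 834 FPKM and Rps24 held 504 to 678 FPKM.

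**Figure D2:**
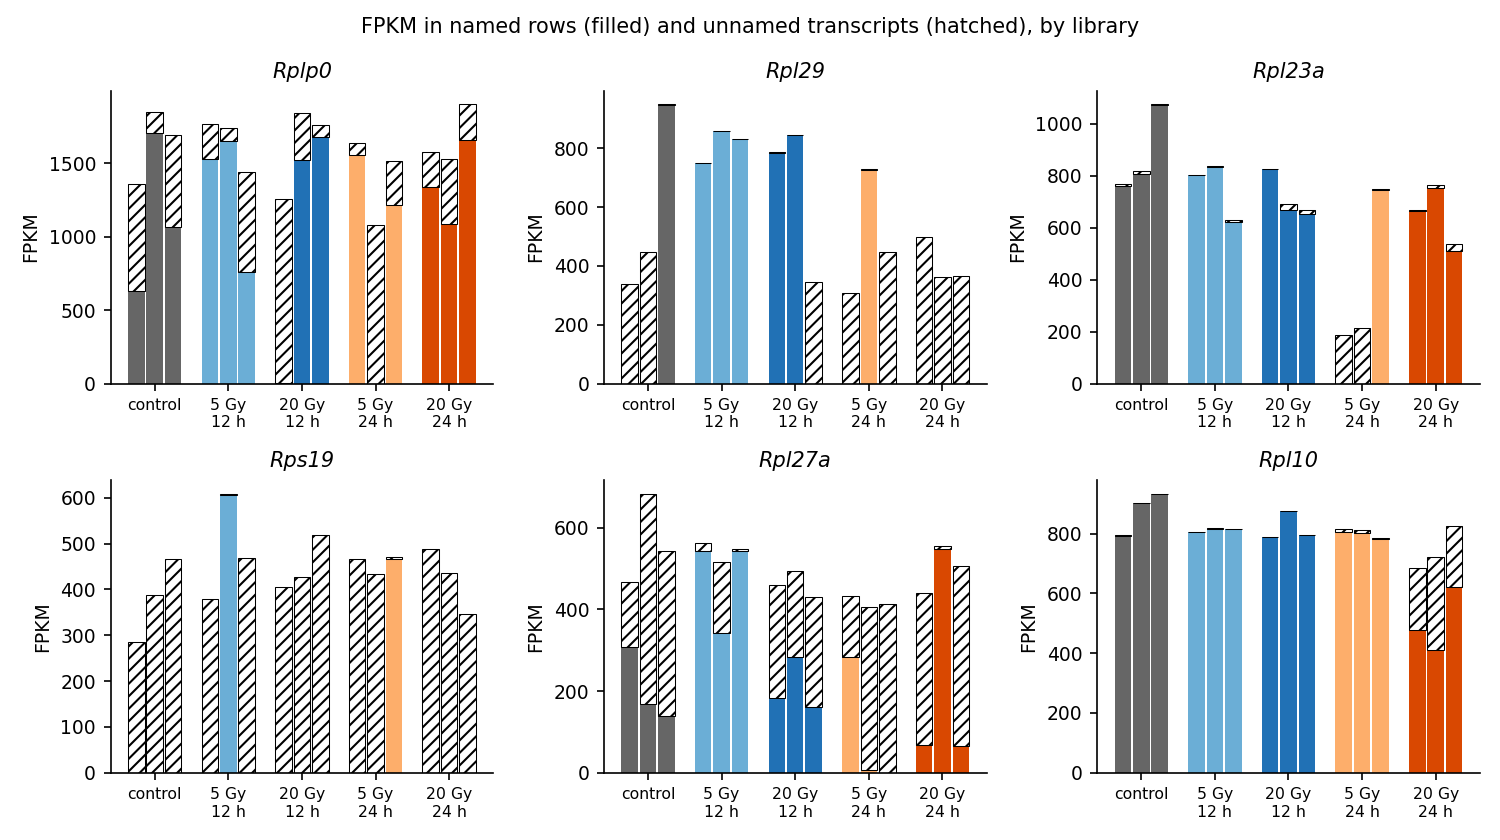
FPKM of 6 ribosomal protein genes in each of the 15 libraries, as bars from 0 with the named transcript filled and the unnamed transcripts hatched. In Rplp0, Rpl29, Rpl23a, Rps19 and Rpl27a the filled part changes between replicates of 1 group more than the whole bar does, and in Rpl10 hatched parts of more than 1.17% appear only in the 20 Gy 24 h group.

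The 43 genes whose named transcripts held at least 90% of the FPKM in every library mostly varied little. Rpl10 was counted among them because its main unnamed transcript also overlapped Emd and had not been added to it. In 25 of these 43 the highest library was less than 1.5 times the lowest, and in 34 less than 2 times. Control replicate 3 was the highest of all 15 libraries in 30 of the 43, and control replicate 1 was the lowest control in 33, so the control spread was shared by most of these genes. The group mean was lowest in the 5 Gy 24 h group for 30 of the 43 and highest in control cells for 24 of them. Their fitted log2 fold changes in the 5 Gy 24 h group lay between −0.39 and 0.58, compared with −6.58 to 2.96 in the other 40 genes by name and −1.50 to 0.79 in those 40 with the unnamed transcripts added.

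At 12 h after 5 Gy, 1 of the 83 genes was called, Rps27l, which rose. A call needed an adjusted p under 0.05 (limma on log2(FPKM + 1), two-sided, Benjamini-Hochberg over all gene sums) and a fold change of at least 1.5, and 7.9% of all gene sums were called, 4.11% higher. The median log2 fold change of the 83 was −0.062 (0.023 over all gene sums). At 12 h after 20 Gy Rps27l was again the gene called, while 6.81% of all gene sums were, 3.93% higher, and the median was −0.084 (0.010 over all). Without the fold limit the count by name stayed at 1 in both comparisons, against 11.6% and 10.1% of all gene sums. With the unnamed transcripts 1 paralogue or gene with a similar name also passed in each, lower. Of all gene sums 10.2% and 8.85% were then called with the fold limit. The median log2(FPKM + 1) of the 83 in single libraries had an SD of 0.17 between replicates of a group. That is a spread of levels, so it does not measure the uncertainty of these median fold changes. Leaving out 1 library at a time moved the median fold change over −0.13 to 0.016 after 5 Gy and over −0.16 to −0.011 after 20 Gy.

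Rps27l encodes a close paralogue of the small subunit protein Rps27 and is a known target of p53. Its FPKM was 52.9, 50.01 and 71.3 in the control libraries, 121, 117 and 109 in the 5 Gy 12 h group and 128, 123 and 97.8 in the 20 Gy 12 h group. It was 77.2, 94.3 and 87.8 in the 5 Gy 24 h group and 106, 106 and 80.4 in the 20 Gy 24 h group. Each of the 12 exposed libraries lay above the highest control library. The log2 fold change was 1.00 (SE 0.15) at 12 h after either dose, with limma adjusted p of 0.00144 after 5 Gy and 0.00166 after 20 Gy. At 24 h it was 0.58 (adjusted p 0.00907, a fold of 1.49, just under the limit) after 5 Gy and 0.74 (adjusted p 0.002, a fold of 1.67) after 20 Gy. From 12 h to 24 h after 5 Gy it fell by 0.42 on the log2 scale (adjusted p 0.0481), and between the doses at 24 h its difference of 0.16 did not pass (adjusted p 0.706). The two-sided exact permutation test gave 0.1 for each comparison with control, the smallest p that 3 against 3 libraries allow.

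Rps27 itself, whose coding sequence is close to that of Rps27l, was 293 to 453 FPKM in control libraries and 259 to 458 FPKM in exposed ones. Its groups overlapped in all 4 comparisons with control, with log2 fold changes between −0.17 and 0.063 and adjusted p of at least 0.576. How the authors' counting shared reads between such copies is not given in the sources used here, so the level of either gene carries that uncertainty. Both genes were whole in their named transcripts, with no unnamed transcript in the locus.

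**Figure D3:**
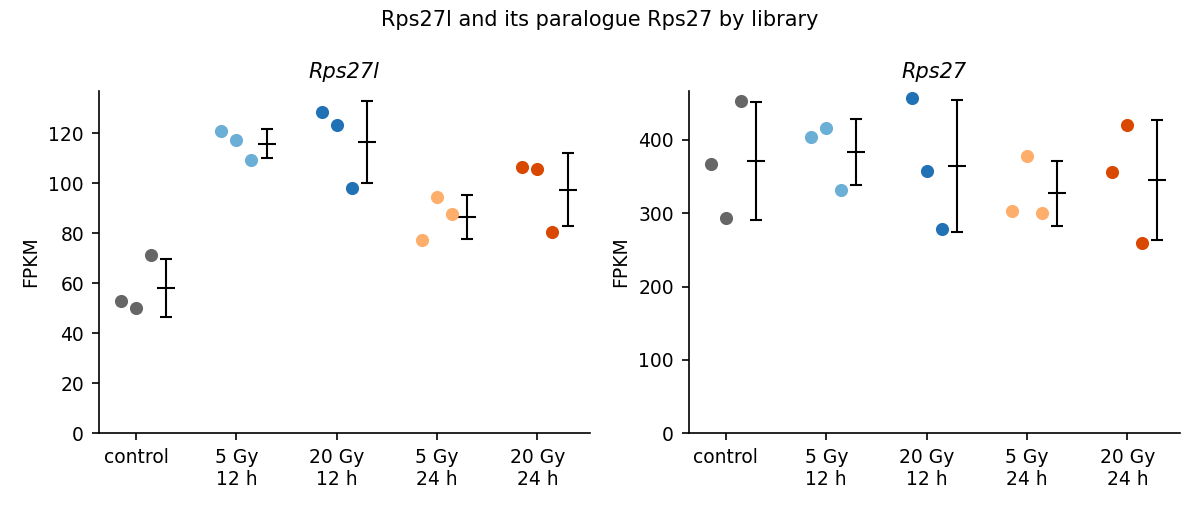
FPKM of Rps27l (left) and Rps27 (right) per library, with the vertical axes starting at 0; points are libraries and the dash and bar give mean ± SD of 3. All exposed libraries of Rps27l (77.2 to 128) sit above the control libraries (50.01 to 71.3), and the groups of Rps27 overlap.

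At 24 h after 5 Gy the median of the ribosomal protein genes was slightly below control, and most of the genes did not pass the test. The median log2 fold change was −0.19 (−0.090 over all gene sums), and 68 of the 83 values were negative. Of the 83, 4 genes were called, all lower (Rpl23a, Rpl36, Rpl7 and Rps25), while 33.5% of all gene sums were called and 18.8% were called lower. Without the fold limit 15 genes were lower and 1, Rps27l, was higher, beside 25.4% and 18.8% of all gene sums, and with the unnamed transcripts 26 were lower, beside 30.9%. The libraries did not overlap and were lower than control in 24 genes, beside 32% of all gene sums. As shares of the 83, these counts were below or near those over all gene sums.

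The small falls that passed without the fold limit were spread over both subunits. Rpsa, a small subunit protein also known as a laminin receptor precursor, was 910, 1003 and 1080 FPKM in control libraries and 803, 808 and 768 FPKM in the 5 Gy 24 h group (log2 fold change −0.33, SE 0.069, adjusted p 0.00213). Rps4x, an X-linked small subunit gene, was 855, 932 and 1004 FPKM in control libraries and 762, 761 and 769 FPKM in the 5 Gy 24 h group (−0.28, adjusted p 0.0035). Rpl3, a large subunit protein near the peptidyl transferase centre, was 636, 695 and 714 FPKM against 590, 569 and 565 FPKM (−0.24, adjusted p 0.00863). Groups did not overlap in any of these 3 genes. Rpl5 was 512, 597 and 599 FPKM in control libraries and 484, 471 and 456 FPKM in the 5 Gy 24 h group (−0.27, adjusted p 0.00708). Its partner Rpl11 was 293 to 352 FPKM in control libraries and 211, 217 and 399 FPKM in the 5 Gy 24 h group by name, and did not pass (adjusted p 0.529). With the unnamed transcripts Rpl11 passed without the fold limit (−0.24, adjusted p 0.0336).

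These small falls rested on the scale. When each library was rescaled to the same sum, the median of the 83 went from −0.19 to −0.0065 and that of all gene sums from −0.090 to 0.059, and after quantile normalization the 2 medians were 0.044 and −0.016. Under either rescaling 1 ribosomal protein gene was called higher and 1 lower, and without the fold limit 2 higher and 2 lower passed after rescaling to the same sum and 6 higher and 3 lower after quantile normalization. By subunit, the medians were −0.17 for the small subunit, −0.22 for the large subunit, −0.36 for the stalk and −0.20 for the paralogues. With the unnamed transcripts they were −0.18, −0.22, −0.18 and −0.22, with Rps10 and Rpl7a counted in the small and the large subunit.

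Of the 4 genes called lower in the 5 Gy 24 h group, Rpl23a had the largest fall. Rpl23a lies at the exit of the peptide tunnel and was 758, 807 and 1071 FPKM in control libraries, listed at 0 in 2 libraries in the 5 Gy 24 h group and 745 FPKM in the third. The fitted log2 fold change was −6.58 (SE 1.86, adjusted p 0.0126), and it rested on both of these libraries, since without either one it was −4.99 with adjusted p of 0.0569 or 0.0564. The call was also lost in a fit of the compared groups alone (adjusted p 0.102). A second transcript of the locus without a name (chr10:65441301-65448953, minus strand, Rnor_6.0, 5 exons, 1510 bases) lay over the gene and beyond it, and with it the 2 libraries held 187 and 213 FPKM. The log2 fold change was then −1.50 (SE 0.39, adjusted p 0.00474), still with 749 FPKM in the third library.

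The other 3 calls were lost with the unnamed transcripts. Rpl7 was 88.8, 97.9 and 102 FPKM in control libraries and 55.2, 68.9 and 52.8 FPKM in the 5 Gy 24 h group by name (−0.70, adjusted p 0.000341), but with the unnamed transcripts 138 to 190 FPKM against 168 to 214 FPKM (0.27, adjusted p 0.138). Rpl36 was 760 to 1005 FPKM in control libraries and 321, 713 and 659 FPKM after exposure (−0.67, adjusted p 0.0452), and −0.40 (adjusted p 0.0236) with the addition. Its call by name was lost without any 1 of the control libraries and without 5 Gy 24 h replicate 1 (−0.30). Rps25 was 255.6 to 346 FPKM in control libraries and 133, 25.9 and 244.5 FPKM after exposure (−1.59, adjusted p 0.046), and −0.58 (adjusted p 0.016), below the fold limit, with the addition. Its call by name was lost when any 1 of the 6 libraries but 5 Gy 24 h replicate 3 was left out, with −0.68 without replicate 2. With the addition the genes called in the 5 Gy 24 h group were Rpl23a and Rpl36a, both lower, while 42.1% of all gene sums were called. Rpl36a was then 87.1, 112 and 125 FPKM in control libraries and 64.7, 29.0 and 55.7 FPKM in the 5 Gy 24 h group (−1.16, SE 0.26, adjusted p 0.00154). The groups did not overlap, and the call held when any 1 of the 6 libraries was left out. The transcript named Rpl36a had 2 exons and 493 bases on chromosome 18, whereas that named Rpl36al had 5 exons and 669 bases on chromosome X. Whether the row named Rpl36a stands for the core gene was not tested.

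At 24 h after 20 Gy the genes as a group were near the control level. The median log2 fold change was −0.055, compared with −0.16 over all gene sums, and 53 of the 83 values were negative. The called genes were Rps27l, which was higher, and Rpl10, Rps19bp1 and Rps24, which were lower, while 33% of all gene sums were called, 12.6% higher and 20.5% lower. Without the fold limit 2 were higher, beside 16.2% of all gene sums, and 4 lower, beside 27.4%, with Rpl19 and Rpsa added. The unnamed transcripts changed the called genes to Rps27l, higher, and Rpl10 (without the transcript that runs from it into Emd), Rps19bp1 and Rpl22l1, lower, while 41.2% of all gene sums were called. After rescaling to the same sum the median was 0.060, and after quantile normalization it was 0.057, so its sign depended on the scale.

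Rpl10, a large subunit protein that joins late in assembly, stood apart in the 20 Gy 24 h group. It was 794, 902 and 934 FPKM in control libraries, 782 to 876 FPKM in the other 9 exposed libraries and 479, 412 and 620 FPKM in the 20 Gy 24 h group. These 3 libraries were the lowest of all 15. The log2 fold change was −0.81 (SE 0.12, adjusted p 0.000156) against control, −0.68 (adjusted p 0.013) against 5 Gy at 24 h and −0.72 (adjusted p 0.000464) against 12 h after 20 Gy. Rpl10 was the gene called in the comparison of the doses at 24 h, where 1.53% of all gene sums were called and 0.831% were called lower.

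Unnamed transcripts overlapping Rpl10 filled much of this gap. Rpl10 lies at chrX:156438251-156440461 on the minus strand of Rnor_6.0, and an unnamed transcript of 7 exons and 1199 bases at chrX:156438251-156455856 ran from Rpl10 to Emd, the gene of the nuclear envelope protein emerin. That transcript held 100, 295 and 174 FPKM in the 20 Gy 24 h group. The unnamed transcripts overlapping Rpl10 held 30.0%, 42.9% and 24.8% of the summed FPKM there and at most 1.17% in every other library. With them Rpl10 was 685, 720 and 825 FPKM in the 20 Gy 24 h group, beside 785 to 814 FPKM in the 5 Gy 24 h group. The log2 fold change against control was then −0.24 (SE 0.078, adjusted p 0.0268), under the fold limit, the difference from 5 Gy at 24 h was −0.12 (adjusted p 0.546) and that from 12 h after 20 Gy was −0.14 (adjusted p 0.168). The named transcript of Emd was 27.8, 33.2 and 38.9 FPKM in the 20 Gy 24 h group, 29.2 to 34.3 FPKM in the 5 Gy 24 h group and 13.7 to 17.5 FPKM in the other libraries.

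Rps19bp1 encodes a nucleolar protein that binds Rps19 and is not itself a subunit. Its FPKM was 37.1, 40.3 and 39.1 in control libraries, 28.1, 28.4 and 30.7 in the 5 Gy 24 h group and 27.2, 26.5 and 22.2 in the 20 Gy 24 h group. Neither exposed group at 24 h overlapped the control libraries. At 12 h it was 34.0 to 38.2 FPKM after 5 Gy and 31.7 to 37.3 FPKM after 20 Gy by name. With the unnamed transcripts these groups held 38.1 to 41.2 and 35.3 to 43.0 FPKM, beside 44.0 to 52.7 FPKM in control libraries. The log2 fold change at 24 h was −0.41 (adjusted p 0.00353) after 5 Gy, without reaching a fold of 1.5, and −0.60 (SE 0.092, adjusted p 0.000233) after 20 Gy. With the highest transcript alone in place of the sum, the latter was −0.26 and did not pass (adjusted p 0.082). It dropped below the fold limit, still past the adjusted p, without control replicate 2 (−0.58) or 20 Gy 24 h replicate 3 (−0.51) and after rescaling to the same sum (−0.50) or quantile normalization (−0.47). Adding the unnamed transcripts gave −0.54 (adjusted p 0.000209) and −0.79 (adjusted p 9.14e-06). Between the doses at 24 h the difference of −0.20 did not pass (adjusted p 0.343).

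The call of Rps24, of the small subunit, rested on a named transcript at 1.22 to 4.16 FPKM in the 20 Gy 24 h group and was lost without control replicate 2 or 3 or 20 Gy 24 h replicate 2 or 3 (−0.80, −0.79, −0.62 and −0.997). With the unnamed transcripts Rps24 was 582, 594 and 678 FPKM in control libraries and 534, 606 and 511 FPKM in the 20 Gy 24 h group, and did not pass (−0.17, adjusted p 0.128). Rpl22l1, the paralogue of Rpl22 of the large subunit, was 73.3, 56.7 and 72.9 FPKM in control libraries and 38.4, 68.1 and 21.6 FPKM in the 20 Gy 24 h group with the unnamed transcripts. It was called lower there (−0.79, SE 0.32, adjusted p 0.0487) although the groups overlapped, and not by its named transcript alone (−0.69, adjusted p 0.126). That call was lost when any 1 of the 6 libraries but 20 Gy 24 h replicate 2 was left out. Rpl22 itself was not called at 24 h after either dose. Rpl19, a large subunit gene, moved the other way, with 615, 750 and 846 FPKM in control libraries and 981, 1003 and 986 FPKM in the 20 Gy 24 h group (0.44, SE 0.12, adjusted p 0.0121), without overlap and without reaching a fold of 1.5.

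**Figure D4:**
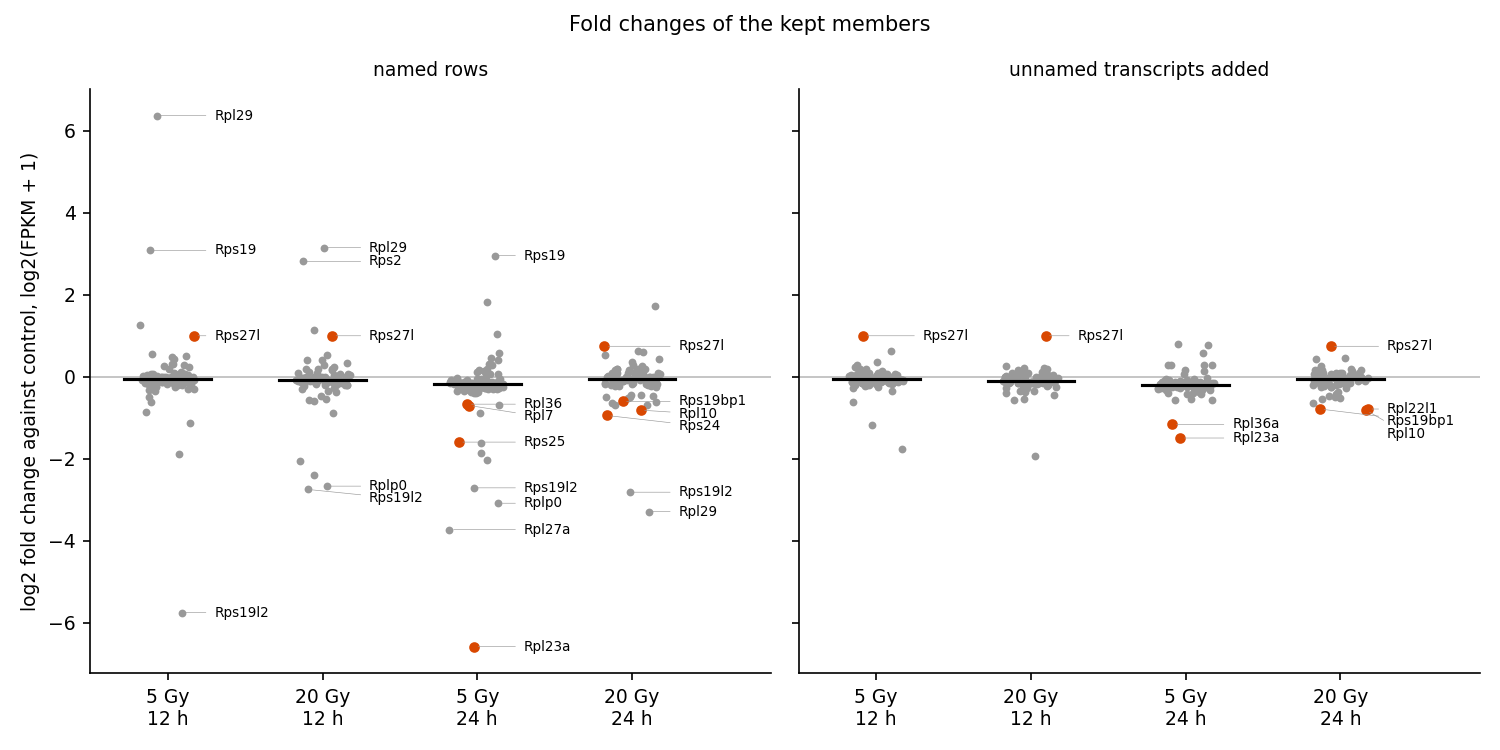
Log2 fold changes against control (log2(FPKM + 1) scale, vertical axis) of the cytosolic ribosomal protein genes in the 4 exposed groups, from named transcripts (left) and with unnamed transcripts added (right). Each point is a gene, orange marks a called gene and the black line is the median; Rplp0, far from 0 by name, sits near the others on the right, while Rpl29 is still at 0.63 in the 5 Gy 12 h group. Rps19 and Rpl35al1 were listed at 0 in all control libraries, so their points on the left are fitted values and no folds, and Rpl10 on the right excludes the transcript that runs into Emd.

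Genes far from the median of the group were mostly those with unnamed transcripts. A gene was counted as far when its log2 fold change lay over 3 scaled median absolute deviations from the median of the group. By name, 13 genes were far in the 5 Gy 12 h group, 15 in the 20 Gy 12 h group, 18 in the 5 Gy 24 h group and 10 in the 20 Gy 24 h group. A total of 28 genes were far in at least 1 of these comparisons, and in 24 of them the named transcripts held under 90% of the FPKM in some library. Once the unnamed transcripts were added 20 genes were far, of which 15 were among those 28. The other far genes were Rps27l, Rpl30, which was 10.9 FPKM in 1 library in the 5 Gy 12 h group, Rpl38, which had 2.21 to 7.83 FPKM over the libraries, and Rpl10, to which the transcript that runs into Emd had not been added. Rps2 and Rps19l2, by name, were listed at 0 in 9 and 10 libraries and reached 249 and 557 FPKM in single libraries of exposed groups, and Rps2 held 745 to 1014 FPKM in every library once its unnamed transcripts were added. Rps19l2 was then still far in both 12 h groups (−0.62 and −0.45), with groups that overlapped.

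Rpl7l1, which works in assembly of the large subunit, changed only with its unnamed transcripts. It had 0.721 to 2.92 FPKM by name over the libraries, and with them 47.9, 48.1 and 49.7 FPKM in control libraries and 36.9, 34.8 and 36.1 FPKM in the 5 Gy 24 h group. At 24 h after 20 Gy it had 35.1, 34.0 and 32.9 FPKM, and neither 24 h group overlapped the control libraries. The log2 fold changes were −0.43 (adjusted p 0.000348) and −0.50 (adjusted p 9.26e-05), both under the fold limit. Rpl35a was spread too widely to compare, with 0.0547 to 44.8 FPKM by name.

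None of the other paralogues passed the test against control. Rpl36al, a close copy of Rpl36a, was 219 to 285 FPKM in control libraries and 173 to 248 FPKM in exposed ones, with log2 fold changes between −0.26 and −0.077. Rpl39l, a copy of Rpl39 best known from the testis, had 0.348 to 0.868 FPKM over the 15 libraries, beside 2.83 to 5.96 FPKM of Rpl39, and Rps4y2, a copy of Rps4x, had 0.626 to 1.76 FPKM. The row of Rpl39 was a single-exon transcript of 156 bases, and in 11 of the 83 genes, among them Rpl38, Rpl9, Rpl30, Rps29 and Rps18, the main named transcript had a single exon. Rpl35al1 was listed at 0 by name in all control libraries and reached 9.94 FPKM in 1 library in the 20 Gy 24 h group, and with the unnamed transcripts it held 5.41 to 7.17 FPKM in control libraries and 2.85 to 15.5 FPKM in exposed ones. Such copies share sequence with other genes, so their low levels are uncertain.

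From 12 h to 24 h after 5 Gy the median change was −0.15 (−0.12 over all gene sums) and 67 of the 83 values were negative. A total of 2 genes were called, Rpl23a and Rpl27a, both lower, while 28.6% of all gene sums were called and 16.9% were called lower. Of the 83, 32 were lower at 24 h without overlap, beside 31% of all gene sums. After the unnamed transcripts were added Rpl27a was no longer called (−0.37, adjusted p 0.0212), and Rpl36a was (−0.98, adjusted p 0.00524), while 36.9% of all gene sums were. After rescaling to the same sum the median was 0.0062 and after quantile normalization 0.023. From 12 h to 24 h after 20 Gy the median was 0.039 (−0.17 over all gene sums), and 1 gene, Rpl10, was called lower, while 28.9% of all gene sums were called and 18.9% were called lower. With the unnamed transcripts that overlap it, Rpl10 did not pass there (−0.14, adjusted p 0.168).

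Between the doses, the genes differed little at 12 h and were slightly higher after 20 Gy at 24 h. At 12 h none of the 83 was called by limma and 1 had an unadjusted p under 0.05, while 0.0372% of all gene sums were called, and the median difference of 20 Gy from 5 Gy was −0.028. At 24 h the median difference was 0.15 (−0.055 over all gene sums) and 19 of the 83 values were negative. The 20 Gy libraries were all above the 5 Gy libraries in 28 genes, beside 6.76% of all gene sums, and all below them in 2, beside 12.7%. With the unnamed transcripts added 34 genes were above without overlap, beside 6.75%. These 34 include Rps10, which was not among the 83. Rpl3, for instance, was 662, 736 and 637 FPKM in the 20 Gy 24 h group and 590, 569 and 565 FPKM after 5 Gy, a difference of 0.24 that did not pass (adjusted p 0.0941). Apart from Rpl10, Rpl7 passed without the fold limit by name (0.52, adjusted p 0.0404), where 1.96% of all gene sums did. With the unnamed transcripts its direction turned, with 191, 168 and 214 FPKM in the 5 Gy 24 h group and 161, 162 and 130 FPKM in the 20 Gy 24 h group (−0.34, adjusted p 0.233). Apart from Rpl10, Rpl18 passed with the unnamed transcripts (0.32, adjusted p 0.037), where 4.51% did. After rescaling to the same sum the median difference was 0.064 and after quantile normalization it was 0.0082. The change from 12 h to 24 h did not differ between the doses for any of the 83 by limma's interaction term (11 had an unadjusted p under 0.05), while 0.36% of all gene sums passed by adjusted p. For the counts by unadjusted p in this paragraph the share over all gene sums is not given, so they cannot be read as high or low.

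A pair of ribosomal proteins spelled with other names, Rack1 and Fau, were set beside the 83. Rack1, a scaffold on the small subunit, was 612, 704 and 769 FPKM in control libraries and 615 to 776 FPKM at 24 h, and its log2 fold changes after 5 Gy and 20 Gy at 24 h were −0.13 and 0.077. Fau, a small subunit protein made as a fusion to a ubiquitin-like protein, was listed at 0 in 3 of the 6 libraries at 12 h. Neither was called in any comparison with control.

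Mitochondrial ribosomal proteins, which build the separate ribosome of mitochondria, had lower medians at 24 h than at 12 h. Of 74 measured genes none was called by limma at 12 h, while 7.9% of all gene sums were called after 5 Gy and 6.81% after 20 Gy. At 12 h an unadjusted p under 0.05 was seen in 12 after 5 Gy and in 14 after 20 Gy. The share of all gene sums with such a p is not given here, so these counts cannot be read as high or low. At 24 h 23 were lower and 2 higher after 5 Gy, and 19 lower and 2 higher after 20 Gy, while 33.5% and 33% of all gene sums were called, 18.8% and 20.5% lower. Their medians after 5 Gy and 20 Gy were −0.056 and −0.13 at 12 h, and −0.52 and −0.40 at 24 h. Over all gene sums the medians were 0.023 and 0.010 at 12 h and −0.090 and −0.16 at 24 h, so these fell too. All these values are by named transcripts without rescaling. By name some list genes varied widely between replicates, such as Mrpl53 at 0.390, 25.2 and 21.6 FPKM in the control libraries. Mrpl36 of the large mitochondrial subunit was 22.8 to 24.1 FPKM in control libraries and 4.52, 5.86 and 4.57 FPKM in the 5 Gy 24 h group (−2.04, adjusted p 7.46e-08). Mrps18b rose from 12.1 to 14.4 FPKM in control libraries to 24.5 to 31.1 FPKM in the 5 Gy 24 h group (1.00, adjusted p 0.000251). The difference between the mitochondrial and the cytosolic genes was not tested.

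Genes that make or control ribosomes moved singly. Of 31 ribosome assembly genes, 1 was higher in the 5 Gy 12 h group and 1 lower in the 20 Gy 12 h group, 3 were higher and 4 lower in the 5 Gy 24 h group, and 1 was higher and 3 lower in the 20 Gy 24 h group, with medians of −0.11, −0.11, 0.060 and −0.13. Over all gene sums 7.9%, 6.81%, 33.5% and 33% were called in these comparisons. Nop10, of the snoRNPs that modify ribosomal RNA, was 51.6 to 59.7 FPKM in control libraries and 20.5 to 21.7 FPKM in the 5 Gy 24 h group (−1.34, adjusted p 4.21e-07). Nob1, the nuclease that finishes the small subunit RNA, was 17.6 to 21.9 FPKM in control libraries and 27.3 to 37.0 FPKM in the 20 Gy 24 h group (0.73, adjusted p 0.000969). Of 10 RNA polymerase I genes none was called at 12 h, and at 24 h Polr1b, its second largest subunit, was higher after both doses (1.14 and 1.07, adjusted p 0.0013 and 0.00206) and Taf1d, of its initiation complex, was lower after 20 Gy. The medians of the RNA polymerase I list were 0.041 and −0.13 at 12 h and 0.003 and −0.15 at 24 h. Of 17 measured translation factors and other TOP genes, Btf3 was called lower in the 5 Gy 12 h group and at 24 h after both doses, and no other was called. Their medians were −0.13 and −0.14 at 12 h and −0.14 and 0.014 at 24 h. Btf3 by name had only 1.58 to 3.82 FPKM in control libraries and 0.149 to 0.345 FPKM in the groups where it was called. These values are near the floor, so its fall is uncertain.

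Among 14 genes that control TOP messenger RNAs, Sesn2 and Ddit4, which restrain the growth kinase mTORC1, rose. Sesn2, a leucine sensor and p53 target, was 17.6 to 22.1 FPKM in control libraries, 38.1 to 42.4 FPKM in the 5 Gy 12 h group and 98.7 to 117 FPKM in the 5 Gy 24 h group. Its log2 fold changes were 0.97 and 1.22 at 12 h and 2.37 and 2.36 at 24 h (adjusted p 0.000221 or less). Ddit4, another inhibitor of mTORC1, rose at 12 h (1.03 and 1.13) and did not pass at 24 h. Eif4ebp1, a translation repressor under mTORC1, was lower at 24 h after both doses (−0.59 and −0.80), and Sesn3 was called higher in the 20 Gy 24 h group. Sesn3 was 9.13, 9.30 and 13.5 FPKM there, and 9.22, 8.71 and 10.2 FPKM in the 5 Gy 24 h group. By name it varied widely between replicates, with 4.13, 4.08 and 0.322 FPKM in control libraries and 0.352, 0.440 and 7.49 FPKM in the 5 Gy 12 h group. The medians of this list were 0.25 and 0.23 at 12 h and 0.19 and −0.016 at 24 h, with 2 higher in each 12 h group, 1 higher and 1 lower in the 5 Gy 24 h group and 2 higher and 1 lower in the 20 Gy 24 h group, beside the same 7.9%, 6.81%, 33.5% and 33% of all gene sums called in either direction.

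**Figure D5:**
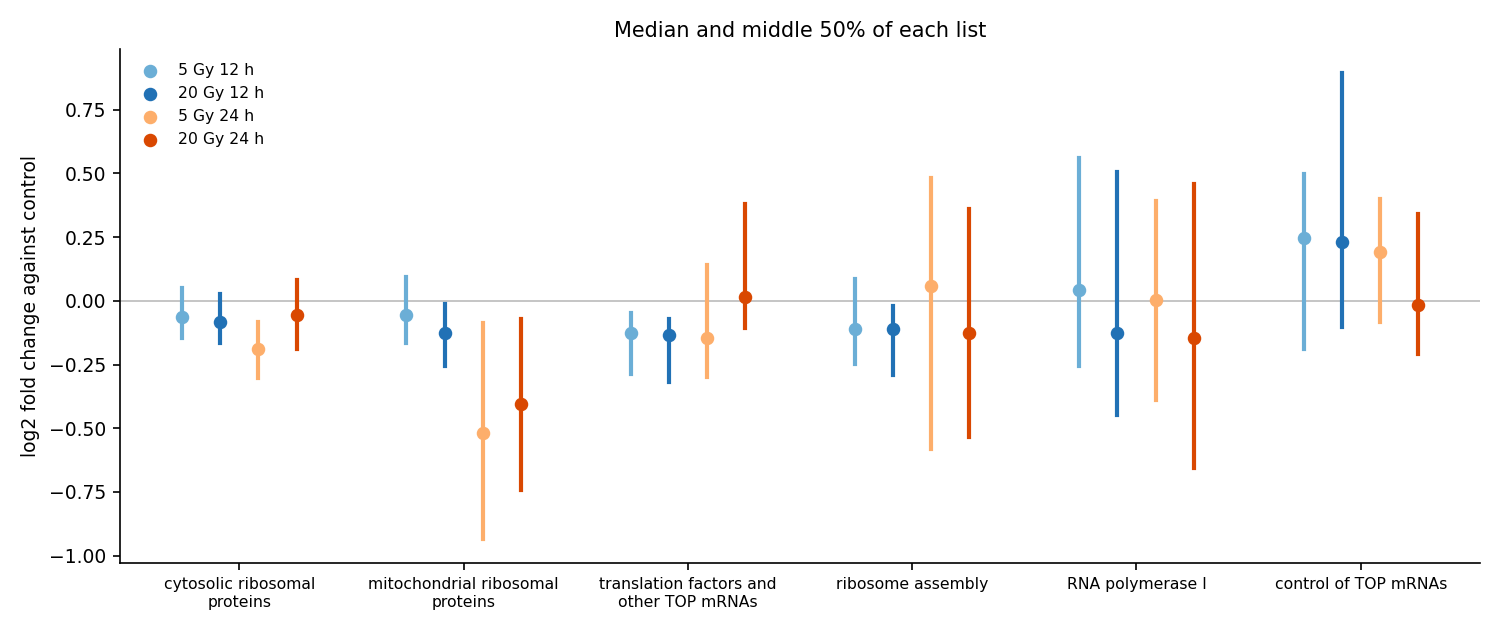
Median (point) and middle 50% (bar) of the log2 fold changes against control in the cytosolic ribosomal protein genes and 5 gene lists, for the 4 exposed groups; the vertical axis is in log2 units. The cytosolic genes stay between −0.19 and −0.055 and the mitochondrial ones reach −0.52 and −0.40 at 24 h.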

How the data were processed

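Polyadenylated RNA of 15 libraries was sequenced, 3 biological replicates in each of 5 groups. The authors trimmed the reads with Trimmomatic, mapped them to Rnor_6.0 with HISAT2 2.0.13 and assembled transcripts with StringTie 1.3.5. They deposited FPKM per transcript, which was used without rescaling, and counts were not analysed here. The named transcripts of a gene were summed, and 34171 unnamed transcripts in named loci were left out unless stated. Gene sums with a mean of at least 0.5 FPKM were tested on log2(FPKM + 1), a scale that understates changes of low genes, with limma 3.58.1 in R 4.3.3 (5 group means, all libraries, a variance prior with a trend). No counting interval was given. On simulated data for 20 Gy 24 h against control (16124 gene sums, 200 changed), 56% of genes with a log2 change of 1 and 76% with a log2 change of 2 were called, 0 with the wrong sign, and 2 unchanged genes were called. The simulation drew independent noise for each gene and changed far fewer gene sums than the 33% called in the data. Its rates therefore do not carry over to the calls given here.

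The members and lists were chosen with earlier results of these data known. Named were the 5 genes with the highest means, the 5 highest and 5 lowest fold changes in each comparison with control, called genes, genes far from the median and a few pairs of known function. Rpsa, Rpl19, Rpl24, Rps10 and Rpl7a were chosen after their values were seen, as were the list genes given with values. All 15 columns of the table were matched to samples.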

Additional observations from a re-analysis of the deposited data

Results flagged for a closer look

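Rpl10 differed between the doses at 24 h, with a log2 difference of −0.68 of 20 Gy from 5 Gy by the named transcript and −0.12 with the unnamed transcripts that overlap it.

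An unnamed transcript that runs from Rpl10 to Emd, outside the sums by gene name, held at least 100.4 FPKM in each library at 24 h after 20 Gy and less than 1 FPKM in each control library.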

How the results depend on the processing

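Replicate numbers did not pair the samples (correlation of deviations between same-numbered libraries −0.077 to 0.11, between others −0.11 to 0.069), and with the replicate block 3 genes were called in the 5 Gy 24 h group, 3 in the 20 Gy 24 h group and, with the unnamed transcripts, 2 in the 5 Gy 24 h group and 2 from 12 h to 24 h after 20 Gy. With a fold limit of 2, the counts were 0 in the 5 Gy 12 h group and after 20 Gy, 2 in the 5 Gy 24 h group, 0 in the 20 Gy 24 h group, 0 from 12 h to 24 h after 20 Gy and 0 between the doses at 24 h. With no fold limit they were 16 in the 5 Gy 24 h group, 8 and 3 from 12 h to 24 h after 5 Gy and 20 Gy, and 2 between the doses at 24 h. In fits of the compared groups alone they were 1 in the 5 Gy 24 h group, 0 from 12 h to 24 h after 5 Gy and 0 between the doses at 24 h. The shares of all gene sums called under these settings, and under those below, are not given in this section. The counts therefore show only how the calls depended on the setting, and cannot be read as high or low.

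At 24 h after 5 Gy 2 genes were called with no filter, after quantile normalization, after rescaling to the same sum (TPM) and with either addition of unnamed transcripts. The median there was 0.044 after quantile normalization, −0.0065 after rescaling and 0.044 with both unnamed transcripts and quantile normalization, and from 12 h to 24 h after 5 Gy it was 0.023 after quantile normalization. At 24 h after 20 Gy 2 were called after quantile normalization, after rescaling and with the highest transcript per gene. From 12 h to 24 h after 20 Gy 2 were called with either addition, also after rescaling. The interaction count was 1 after quantile normalization, with or without unnamed transcripts.

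Leaving out 1 library at a time gave counts of 1 to 2 in the 5 Gy 12 h group, 1 in the 20 Gy 12 h group, 2 to 5 in the 5 Gy 24 h group and after 20 Gy, 1 to 3 from 12 h to 24 h after either dose, 0 and 0 to 3 between the doses at 12 h and 24 h and 0 to 1 for the interaction. The median ranged over −0.13 to 0.018 and −0.17 to −0.011 in the 5 Gy 12 h group and 20 Gy, −0.26 to −0.10 and −0.13 to 0.036 at 24 h, −0.16 to −0.12 and −0.0028 to 0.099 from 12 h to 24 h, and −0.073 to 0.035 and 0.14 to 0.18 between the doses at 12 h and 24 h.

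Rpl7 in the 5 Gy 24 h group changed sign with unnamed transcripts, to 0.27 with either addition and with the replicate block, 0.42 after rescaling, 0.60 after quantile normalization and, with each library left out in turn, 0.18, 0.23, 0.41, 0.27, 0.36 and 0.19. Rps27l kept its call under every alternative run except the fold limit of 2. The settings with overlapping unnamed transcripts, and those combining unnamed transcripts with another change, were chosen after seeing the data.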
